A study of Homo sapiens with 2 samples.

Results

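A2780CBNDXL, an ovarian cancer line selected in carboplatin and docetaxel together, was compared gene by gene with A2780CBN, a sister line selected in carboplatin alone. Both came from A2780, an established line of endometrioid ovarian carcinoma, and were raised through stepwise increases of drug, a scheme meant to keep many cells rather than 1 clone. A2780CBN was labelled as tolerating 22.2 µM carboplatin, and A2780CBNDXL as tolerating 8.02 µM of the combination, although the study's text gives a different final dose for the combination, so that this figure is uncertain. A2780CC, the parental line carried alongside without drug, was hybridized against each resistant line on 2-colour Agilent oligonucleotide arrays with 41000 human probes. The paper states that a co-cultured control was made for each resistant line, so the A2780CC samples of the 2 lines need not be the same culture. Each line was 1 sample, made by pooling RNA of separate isolations, and was placed on 4 arrays: 2 slides, each carrying both lines once with forward and once with reverse labelling. The docetaxel-selected sister line is not analysed here.

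Only the channel holding the resistant line was used, and the log2 signal of A2780CBN was subtracted from that of A2780CBNDXL on arrays of the same slide and labelling direction, giving 4 matched differences per probe. A probe was kept where the scanner software marked it well above background in at least 1 of the lines on all 4 of its arrays. That left 23992 probes, and the brightest probe of each gene stood for 17589 of the 30238 gene names on the array. A gene was called higher or lower where its mean difference was at least 2-fold and had the same sign in all 4 matched pairs. The errors below are SDs over the 4 pairs (n = 4 array pairs of the same 2 RNA pools), so they cover labelling and hybridization and say nothing of the spread between cultures, and no test across samples was possible. Where the dimmer line was above background on only some of its arrays, the number of those arrays follows the error, and that difference rests in part on signals not told from background. A gene that passed the filter through 1 line alone had to differ to some extent, so the counts of members describe the lines and are not support for anything beyond them.

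Carboplatin binds DNA and links its strands, and cells are known to tolerate it by taking up less drug, by trapping it with thiols such as glutathione and metallothioneins, or by repairing or bypassing the lesion. Docetaxel stabilizes microtubules and stalls mitosis, and taxane-resistant cells are known for pumping the drug out through ABC transporters, P-glycoprotein (ABCB1) above all, and for altered tubulins and microtubule-associated proteins. Several of the genes below are also read-outs of stress and immune pathways, among them interferon signalling, the amino acid response driven by the transcription factor ATF4, and the NRF2 antioxidant response.

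Of the 17589 genes, 1128 (6.41%) were higher in A2780CBNDXL and 1741 (9.90%) were lower. The median difference over all tested genes was 0.05 on the log2 scale, and the median distance from 0 was 0.36. The same rule was applied to the 2 A2780CC channels, each the co-cultured control of 1 line, both of parental cells without drug. It called 779 of 17364 genes (4.49%), 531 higher and 248 lower in the control beside A2780CBNDXL. This count can hold differences between control cultures as well as array error, and these were not told apart. Among the called genes, the controls moved the same way by at least 2-fold for 163 of those higher in A2780CBNDXL (14.5%) and for 59 of those lower (3.39%); genes called the same way between the controls are pointed out where they are named. Of the called genes, 787 and 1020 were above background in both lines on every array, and their median differences were 1.46 and -1.54. Differences of at least 16-fold were measured for 48 genes that were higher and 45 that were lower. Where a called gene had other probes past the filter, 312 of 316 such probes had the same sign among the higher genes and 571 of 596 among the lower genes. Fewer gave the same call: 261 (82.6%) among the higher genes and 427 (71.6%) among the lower genes. Values below are those of the brightest probe, and a probe of a named gene that gave another call is given beside it.

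**Figure D1:**
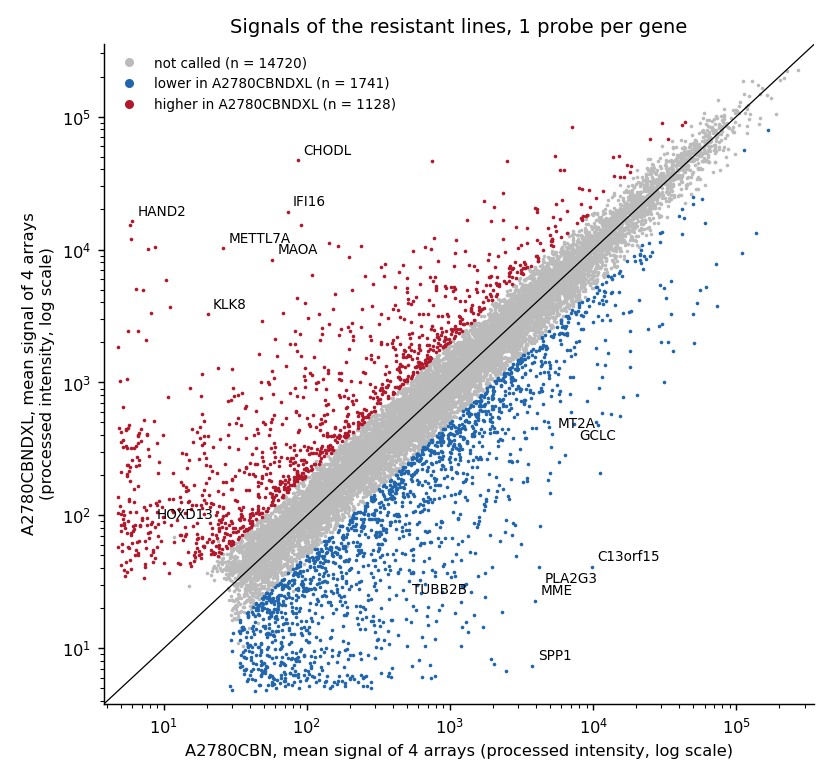
Mean normalised signal of each tested gene in A2780CBN (horizontal axis) and in A2780CBNDXL (vertical axis), both on log scales in arbitrary units, with genes called higher and lower in colour. The 1128 higher and 1741 lower genes lie on either side of the diagonal, and the share called fell from 26.9% in the third of genes with the lowest signal to 7.54% in the third with the highest.

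One array set itself apart: the forward-labelled A2780CBNDXL array of slide 1 had spike-in probes with a coefficient of variation of 20.0%, against 3.56% to 4.87% on the other 7, and the residual SD of its matched pair was 0.60 against 0.37 to 0.38. Without that pair 1132 genes were higher and 1700 lower. The dye entries in the labels of the reverse arrays go against the array names, and channels were assigned by name; forward and reverse log ratios of the same line correlated at 0.58 to 0.74 over probes once turned that way. Of the ovarian epithelial markers, 8 of 16 were tested; PAX8, EPCAM, KRT8, KRT18, CLDN3 and ESR1 were above background in both lines on every array and not called, with differences from -0.45 to 0.38, FOLR1 (2.27 ± 0.72, controls 1.45) and SOX17 (at least 5.87-fold) were higher in A2780CBNDXL, and WT1, MUC16, MSLN, KRT7, KRT19, CDH1, CLDN4 and PGR were not above background in either line on all arrays. Of 11 markers of other cell types, the leukocyte gene PTPRC and the endothelial genes PECAM1, VWF and CDH5 did not pass the filter, while the fibroblast genes DCN (4.23 ± 0.27), LUM (3.27 ± 0.23) and COL1A1 (1.44 ± 0.02) were higher in A2780CBNDXL and COL3A1 was at -0.09. The leukocyte genes CD3E (-0.10), CD14 (-0.15) and CD68 (-0.97) were not called, although without the slide 1 forward pair 1 gene of this list was lower. DCN and LUM were also higher in the control beside A2780CBNDXL, by 2.83 and 3.08; the part of other cells in these values was not tested.

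**Figure D2:**
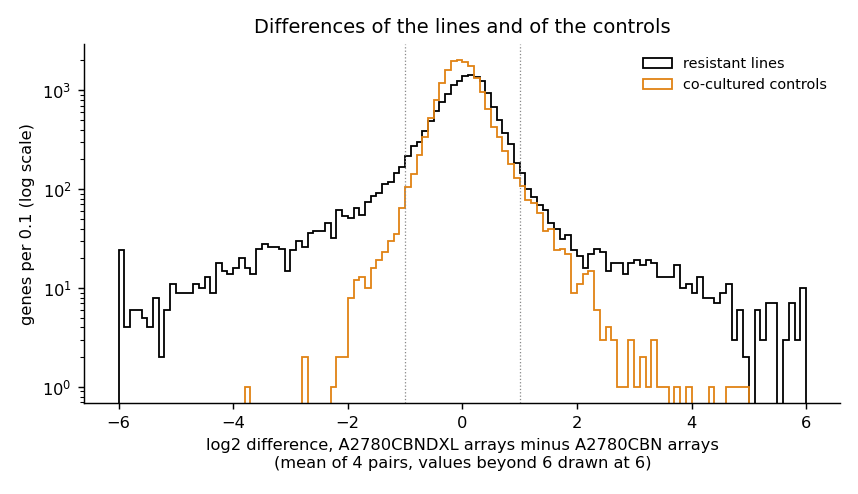
Number of tested genes per step of 0.1 (vertical axis, log scale) by their log2 difference, A2780CBNDXL arrays minus A2780CBN arrays (horizontal axis, values beyond 6 drawn at 6), for the resistant lines (black) and for their co-cultured controls (orange), with dotted lines at 2-fold. The line differences reach further than the control differences on both sides, and both come from channels of the same arrays.

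The genes furthest apart were weak in one line and strong in the other. Those given first were above background on at least 1 array of the weaker line, and several on all 4. CHODL, a membrane C-type lectin, read 75.9 to 103 on the 4 A2780CBN arrays and 41795 to 53704 on the 4 A2780CBNDXL arrays, a difference of 9.08 ± 0.34 (probe at NCBI36 chr21, positions 18561407 to 18561466). MAOA, the mitochondrial enzyme that breaks down serotonin and noradrenaline, read 44.9 to 77.0 in A2780CBN and 7509 to 9324 in A2780CBNDXL (7.20 ± 0.29), and TYRP1, a melanosome protein of the pigment pathway, 128 to 162 and 10482 to 11681 (6.28 ± 0.09). In each case every A2780CBNDXL array was far above every A2780CBN array, which the choice of genes by size of difference makes likely. METTL7A (8.61 ± 0.32, 1 array), a methyltransferase-like protein of the endoplasmic reticulum and lipid droplets, the serine protease KLK8 (7.34 ± 0.70, 1 array), CYB5R2 (5.95 ± 0.42), a cytochrome b5 reductase, FAR2 (5.90 ± 0.15), which reduces fatty acyl-CoA to fatty alcohol, the secreted proteins LRRC17 (6.0 ± 0.25) and OLFML3 (5.88 ± 0.23), C9orf150 (5.66 ± 0.05) and the calcium-activated potassium channel KCNMA1 (5.48 ± 0.13) followed. Among these ranked genes the controls also stood apart, in the same direction, for SIPA1L2, a Rap GTPase-activating protein (lines 7.40 ± 0.23, controls 3.37), BARX1, a homeobox factor (lines 5.63 ± 0.27, controls 2.95), and PCNXL2 (lines 5.75 ± 0.66, 3 arrays, controls 2.19). The same held by smaller amounts for FAR2 (2.22), MAOA (1.48), KCNMA1 (1.22), OLFML3 (1.20) and LRRC17 (1.11), while CHODL, METTL7A, KLK8, TYRP1, CYB5R2 and C9orf150 were not called between the controls.

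For other genes no array of the dimmer line was well above background, and only a lower bound of the ratio can be given, taken against the dimmest signal that counted as above background. HAND2, a basic helix-loop-helix factor of heart, limb and uterine stroma, was at least 694-fold higher in A2780CBNDXL, where it read 15498 to 17120.5; its antisense neighbour NBLA00301 (now HAND2-AS1) was at least 213-fold higher, and both were higher in the matching control too, by 4.82 and 4.93. SUCNR1, the receptor for the metabolite succinate, was at least 645-fold higher, SEMA6D, a semaphorin of axon guidance, at least 505-fold, and DSEL, an enzyme that modifies dermatan sulfate, at least 251-fold. CDH11, a cadherin of mesenchymal cells, read 10.1, 5.41, 7.88 and 13.6 in A2780CBN on slide 1 forward, slide 1 reverse, slide 2 forward and slide 2 reverse, and 12540.3, 9968, 10632 and 8660.3 in A2780CBNDXL, at least 440.1-fold higher with controls that were both near background. The protocadherin PCDH9 was at least 428-fold higher and FAM155A, an auxiliary part of the sodium leak channel, at least 209.8-fold. Between the controls, SUCNR1 (1.57), SEMA6D (1.72), PCDH9 (1.15) and DSEL (1.01) were called higher as well, by far smaller amounts than between the lines.

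The genes with the largest negative differences were strong in A2780CBN and weak in A2780CBNDXL. Some were at background in A2780CBNDXL, and others, such as PLAGL1 and POU4F1, were above it on every array. C13orf15 (now RGCC), a regulator of the cell cycle that responds to complement, read 8363 to 11848 in A2780CBN and 11.2 to 93.4 in A2780CBNDXL (-7.90 ± 1.16, 3 arrays). MME, the membrane metallopeptidase neprilysin, read 3125 to 4769 in A2780CBN and 8.42 to 52.3 in A2780CBNDXL (-7.42 ± 0.96), and was above background in A2780CBNDXL on 1 array alone. SOCS2, a suppressor of cytokine and growth hormone signalling, read 9344 to 12729 in A2780CBN and 195 to 223 in A2780CBNDXL (-5.75 ± 0.29), with both controls above the A2780CBN arrays (14645 and 13586). The arrays of the 2 lines did not overlap for any of these genes, but the genes were picked for their large differences, so this adds no support. Lower as well were the secreted phospholipase PLA2G3 (-6.67 ± 0.90, 3 arrays), INPP4B (-6.17 ± 0.72, 2 arrays), a phosphatase of phosphoinositides, the chloride channel family member ANO3 (-5.87 ± 0.31), the zinc-finger factor PLAGL1 (-5.68 ± 0.38), the neuronal POU factor POU4F1 (-5.58 ± 0.66), the neuropeptide NMU (-5.57 ± 0.25, 3 arrays), the ubiquitin ligase RNF157 (-5.36 ± 0.34, 2 arrays), the cannabinoid receptor binder CNRIP1 (-5.68 ± 0.62, 3 arrays), the membrane protein TMEM47 (-5.42 ± 0.41, 2 arrays), the poly(A) polymerase family member FAM46A (-5.71 ± 0.48, 3 arrays) and the extracellular matrix protein MFAP4 (-5.37 ± 0.55, 1 array). Of these, C13orf15 and MFAP4 were lower in the control beside A2780CBNDXL too (-1.34 and -2.06). SPP1, the secreted phosphoprotein osteopontin, was at least 179-fold lower, CXorf57 (now RADX), which binds single-stranded DNA at replication forks, at least 117-fold, NUDT10 at least 100.4-fold, FAM129A (now NIBAN1), a stress-responsive regulator of translation, at least 94.2-fold, and the protocadherin PCDH15 at least 92.4-fold. Bounds from 52.3- to 80.4-fold were found for SEL1L3, the zinc-finger homeobox factor ZFHX4, the cytoskeletal adaptor EPB41L3, ARNT2, a dimer partner of basic helix-loop-helix factors, and RNF128, a ubiquitin ligase, and no gene of this set was called between the controls.

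**Figure D3:**
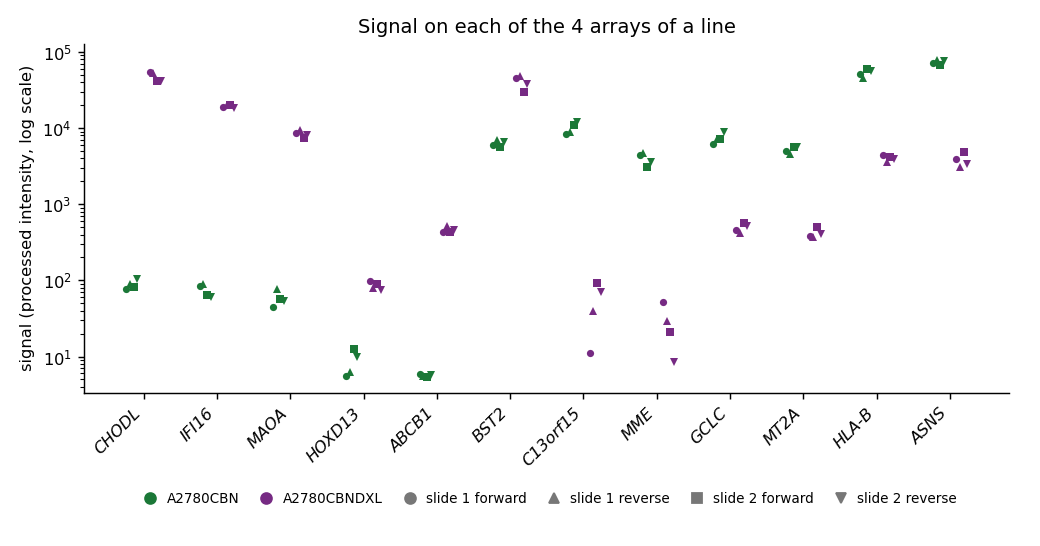
Normalised signal (log axis, arbitrary units) of 12 genes on each of the 4 arrays of A2780CBN and the 4 of A2780CBNDXL, with marks for slide and labelling direction. For CHODL the A2780CBN arrays read 75.9 to 103 and the A2780CBNDXL arrays 41795 to 53704, and the 2 sets of points are apart for each of the 12 genes. All 12 were picked from the called genes, so this separation adds no support.

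The counts of each list below are to be read beside the shares over all tested genes, 6.41% higher and 9.90% lower. Of the gene lists examined, those of MHC class I antigen presentation and interferon signalling had some of the lowest medians. Antigen presentation is the machinery that cuts, transports and displays peptides to cytotoxic T cells. Of the 15 antigen presentation genes tested, 13 were lower in A2780CBNDXL and none higher, with a median of -2.44. Of 41 interferon-stimulated genes, 25 were lower and 2 higher, with a median of -1.44. The sequences upstream of 3 of these genes are shown because they carry the letters of the interferon-stimulated response element, the site bound by factors that carry the interferon signal: GBP1 and TAP1, each the member of its list with the most negative difference among those measured in both lines that held a match, and BST2, which ran the other way. The windows run from 250 bases before to 50 bases after the gene's start (RefSeq, GRCh38.p14, both strands searched), matches to GAAA, 2 bases of any kind and GAAA again, or to the reverse complement (TTTC, 2 bases, TTTC), are in capitals, and the gene's strand is shown 5′ to 3′. The coordinates are chr1:89065159-89065458 for GBP1, chr6:32853655-32853954 for TAP1 and chr19:17405581-17405880 for BST2, all on the minus strand; the matches in TAP1 and those in BST2 overlap each other.
GBP1: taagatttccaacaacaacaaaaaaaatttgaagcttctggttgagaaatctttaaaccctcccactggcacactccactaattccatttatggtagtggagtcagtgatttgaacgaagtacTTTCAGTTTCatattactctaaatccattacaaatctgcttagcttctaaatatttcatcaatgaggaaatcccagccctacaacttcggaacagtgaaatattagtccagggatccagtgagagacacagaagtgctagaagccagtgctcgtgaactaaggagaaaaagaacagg
TAP1: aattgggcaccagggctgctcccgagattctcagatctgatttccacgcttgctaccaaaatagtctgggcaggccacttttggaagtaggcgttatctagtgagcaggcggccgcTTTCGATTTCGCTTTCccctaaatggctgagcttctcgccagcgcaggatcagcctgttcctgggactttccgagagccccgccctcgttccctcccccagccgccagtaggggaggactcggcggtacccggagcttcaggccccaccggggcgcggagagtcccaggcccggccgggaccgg
BST2: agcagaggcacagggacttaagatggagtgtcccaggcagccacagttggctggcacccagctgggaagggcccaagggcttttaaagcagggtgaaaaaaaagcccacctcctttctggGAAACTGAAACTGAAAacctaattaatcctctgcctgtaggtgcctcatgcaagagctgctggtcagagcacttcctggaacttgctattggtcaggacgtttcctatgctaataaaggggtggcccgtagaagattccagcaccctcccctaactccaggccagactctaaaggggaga
Such a match stood in 13 of the 21 lower interferon genes with a promoter in the table, in 5 of the 10 others, in 6 of the 10 lower antigen presentation genes and in 1 of the other 2, against 3.65% of all 27305 promoters. A match is a string of letters and not a shown binding site.

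GBP1, an interferon-induced GTPase that attacks the vacuoles of intracellular pathogens, read 5754, 6410.3, 4982 and 6067 in A2780CBN (slide 1 forward and reverse, then slide 2 forward and reverse) and 311, 228, 248 and 238 in A2780CBNDXL, a difference of -4.51 ± 0.28. TAP1, a subunit of the pump that carries peptides into the endoplasmic reticulum, read 43461 to 58697 against 1614 to 2408 (-4.67 ± 0.19). In both genes the highest A2780CBNDXL array lay well under the lowest A2780CBN array, which their choice by size of difference makes likely. The transcription factors IRF1 (-3.84 ± 0.29) and IRF9 (-2.11 ± 0.24), which relay the interferon signal, were lower, while STAT2 was not called (-0.20). Effectors that were lower included IFIT2 (-3.84 ± 0.21), IFIT3 (-3.89 ± 0.27) and OAS3 (-1.5 ± 0.11), which makes the messenger that activates RNase L. Others were the GTPase MX1 (-1.33 ± 0.20), PARP14 (-2.43 ± 0.10), PARP9 (-1.92 ± 0.25) and IFI27 (-2.18 ± 0.11). XAF1 (-2.82 ± 0.24), an antagonist of the apoptosis inhibitor XIAP, was lower too. LAMP3, a lysosomal glycoprotein, was at background in A2780CBNDXL and at least 11.4-fold lower.

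For the presenting molecules themselves, HLA-B read 45154 to 59546 in A2780CBN and 3566 to 4416 in A2780CBNDXL (-3.73 ± 0.15). HLA-C (-3.53 ± 0.40), HLA-F (-3.37 ± 0.25) and HLA-E (-2.60 ± 0.10) were lower by similar or smaller amounts; these genes are close in sequence, and cross-hybridization between their probes was not tested. B2M, their shared light chain, read 50026 to 71165 in A2780CBN and 13874 to 17642 in A2780CBNDXL (-1.93 ± 0.19). The immunoproteasome subunits PSMB9 (-3.77 ± 0.07) and PSMB10 (-1.29 ± 0.07), NLRC5 (-2.44 ± 0.59, 3 arrays), the transactivator of class I genes, and the trimming peptidases ERAP1 (-1.57 ± 0.52, 3 arrays) and ERAP2 (-1.96 ± 0.14) were lower too. The exceptions were TAPBP (-0.30), which bridges TAP and the class I chain, and PSMB8 (-0.10), and neither was called.

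The exceptions on the interferon list were 2 genes that were higher. IFI16, a sensor of nuclear DNA, read 60.1 to 89.5 in A2780CBN and 18252 to 20021 in A2780CBNDXL (8.04 ± 0.26), and BST2, the tetherin that holds budding viruses at the membrane, 5720.0 to 6921 and 30017 to 48264 (2.67 ± 0.25). Both were also higher in the control beside A2780CBNDXL, by 4.69 and 1.47. The 2 controls differed over these lists as well, in the direction opposite to most of the line differences: 17 of the 41 interferon genes were called between the controls, whose median was 0.84, and 7 of 15 antigen presentation genes, whose median was 0.86. TAP1 read 3638 in the control beside A2780CBN and 11659.9 in the one beside A2780CBNDXL, values between those of the 2 resistant lines. Without the slide 1 forward pair the counts for both lists were the same, 25 lower and 2 higher, and 13 lower. A model-based alternative to the subtraction made by the scanner software, normexp background correction with an offset of 50, was also used. The offset shrinks log differences of dim probes. With normexp background correction 16 interferon genes and 10 antigen presentation genes were lower.

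A second group with one direction was the ATF4 programme, by which cells short of amino acids or under stress of the endoplasmic reticulum make enzymes and carriers for amino acids. Of 22 genes tested, 16 were lower in A2780CBNDXL, none higher, and the median was -1.48, while none was called between the controls. ATF3, a stress-induced transcription factor, read 1400.3 to 1743 in A2780CBN and 24.9 to 40.6 in A2780CBNDXL (-5.48 ± 0.35, 2 arrays). TRIB3, a pseudokinase induced by ATF4, read 23574 to 41782 in A2780CBN and 871 to 1157 in A2780CBNDXL (-4.95 ± 0.33), and ASNS, which makes asparagine, read 72462, 78636, 66732 and 76965 in A2780CBN and 3885, 3111, 4906 and 3408 in A2780CBNDXL (-4.29 ± 0.39). Both controls were above the A2780CBN arrays for ASNS, at 81072 and 95687. The ATF3 window is shown because ATF3 had the most negative difference of the list and held a match to TGATGNAA, letters of the amino acid response element (capitals; RefSeq, GRCh38.p14, chr1:212565157-212565456, plus strand); 5 of the 14 lower members with a promoter had such a match on either strand and none of the 5 others did, against 3.67% of all promoters.
ATF3: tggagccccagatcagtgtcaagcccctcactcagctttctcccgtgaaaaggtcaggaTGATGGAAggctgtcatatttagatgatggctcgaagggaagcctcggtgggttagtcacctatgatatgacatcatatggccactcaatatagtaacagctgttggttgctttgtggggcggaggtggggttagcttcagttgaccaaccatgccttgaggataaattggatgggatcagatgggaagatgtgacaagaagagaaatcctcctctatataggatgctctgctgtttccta
ATF4 itself was lower (-1.48 ± 0.09), as were the stress proteins NUPR1 (-4.06 ± 0.60), CHAC1 (-1.99 ± 0.23), which degrades glutathione, STC2 (-2.52 ± 0.58) and SESN2 (-1.08 ± 0.24). The carriers SLC7A5 (-2.52 ± 0.21), SLC7A1 (-1.49 ± 0.46) and SLC1A5 (-1.03 ± 0.34) and the mitochondrial folate enzymes MTHFD2 (-2.32 ± 0.20) and SHMT2 (-1.43 ± 0.12) were lower. The lipoprotein receptor VLDLR (-4.43 ± 0.33, 3 arrays) and the transcription factor CEBPB (-2.15 ± 0.16, a second probe at -0.87 not called) belonged to the same group. Not called were DDIT3 (-0.57), PHGDH (-0.85), PSPH (-0.68) and XBP1 (-0.36), nor the chaperones HSPA5 (0.29) and HSP90B1 (0.31). Without the slide 1 forward pair 15 were lower.

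**Figure D4:**
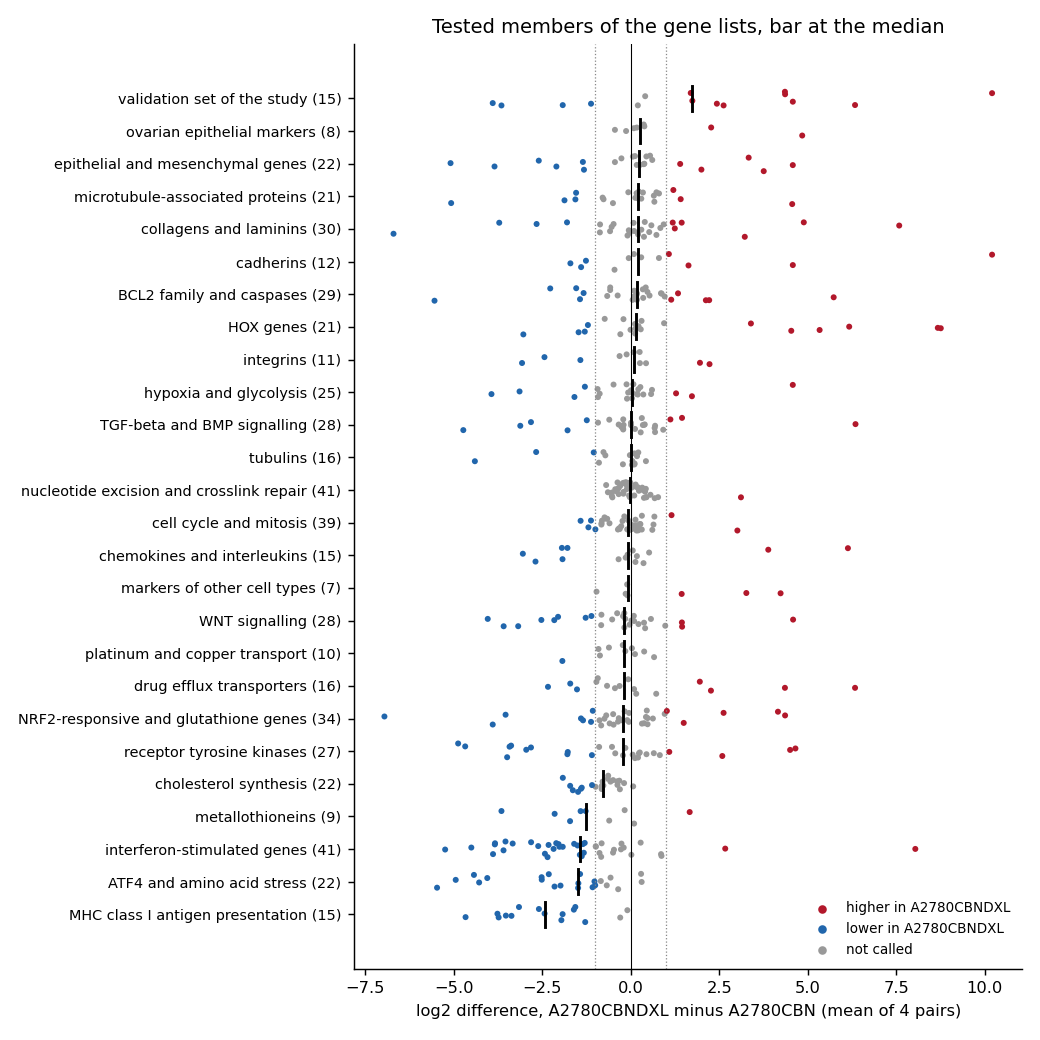
Difference between the lines (log2, A2780CBNDXL minus A2780CBN) of each tested member of gene lists, 1 row per list, with called members in colour and the list median marked; a gene for which only a bound could be given is drawn at its measured difference. The antigen presentation, ATF4, interferon and metallothionein lists have medians of -2.44, -1.48, -1.44 and -1.27, beside 0.05 for all genes.

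Metallothioneins are small cysteine-rich proteins that bind zinc, copper and platinum. Of 9 genes in the metallothionein list, 5 were lower and 1 was higher, with a median of -1.27 and no call between the controls. MT2A, the main metallothionein of most cells, read 5036, 4610.1, 5569 and 5611 in A2780CBN and 381, 369.9, 500.4 and 409 in A2780CBNDXL (-3.65 ± 0.13). MT1G (-2.15 ± 0.16), MT1X (-1.72 ± 0.09) and MT1B (-1.27 ± 0.27) were lower, and so was SLC30A1 (-1.42 ± 0.09), a zinc exporter switched on by the same metal sensor MTF1. MT1M, a dim member, was higher (1.67 ± 0.19), and MT1E (-0.17), MT1H (-0.61) and MT3 (0.09) were not called by their brightest probes. Probes of 1 gene disagreed in this family: other probes of MT1H (-1.90 ± 0.32) and MT3 (-1.30 ± 0.79) were called lower, and others of MT1G (-0.64) and MT1X (-0.59) were not called. Cross-hybridization within the family was not tested. With normexp background correction 3 of the list were lower and none higher. The MT2A window is given for its metal response elements, 8 matches to TGCACNC or TGCGCNC on either strand (capitals; RefSeq, GRCh38.p14, chr16:56608334-56608633, plus strand). All 5 list members with a promoter in the table held at least 1 match, but so did 29.3% of all promoters.
MT2A: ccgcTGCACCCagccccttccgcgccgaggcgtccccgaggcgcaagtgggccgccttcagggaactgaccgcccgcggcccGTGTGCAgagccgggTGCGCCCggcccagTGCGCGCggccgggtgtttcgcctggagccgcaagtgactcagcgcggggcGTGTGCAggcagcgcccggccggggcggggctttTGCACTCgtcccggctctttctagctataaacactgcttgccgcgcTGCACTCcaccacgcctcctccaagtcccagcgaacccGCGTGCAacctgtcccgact

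The glutathione and NRF2 list was divided, with 7 of 34 genes lower, 5 higher and a median of -0.21. Of those lower, 4 make glutathione or bring in the cystine for it. GCLC, the catalytic subunit of the enzyme that limits glutathione synthesis, read 6131 to 8824 in A2780CBN and 421 to 572 in A2780CBNDXL (-3.90 ± 0.24). Its partner GCLM was lower (-1.41 ± 0.19), and SLC7A11, the cystine carrier that supplies the path, read 657 to 845 in A2780CBN and was below background in A2780CBNDXL, at least 35.2-fold lower. SLC3A2 (-1.07 ± 0.11), the other chain of that carrier, the haem-degrading HMOX1 (-3.54 ± 0.35), OSGIN1 (-1.35 ± 1.18, 3 arrays), which no longer reached 2-fold without the slide 1 forward pair, and the transferase GSTO1 (-1.12 ± 0.17) made up the rest. Higher were the aldo-keto reductases AKR1C1, at least 8.85-fold, and AKR1C3, at least 16.5-fold, which reduce steroids and carbonyl compounds and are near-copies of each other, and the transferases GSTO2 (2.62 ± 0.38), MGST1 (1.5 ± 0.21) and GSTM2 (1.02 ± 0.55). GSTO1 and GSTO2 are neighbours and ran in opposite directions: GSTO1 read 20938 to 27765 and 8956 to 14047, and GSTO2 283 to 408 and 1733 to 2639.7, in A2780CBN and A2780CBNDXL. NQO1 (-0.05), TXNRD1 (-0.60) and SRXN1 (-0.34), which are read-outs of NRF2, were not called. Dimmer probes of GGT1, whose brightest was not called, were called higher (1.53 ± 0.17, 1.67 ± 0.09 and 1.70 ± 0.36). Dimmer probes of ME1 (-1.14 ± 0.90 and -1.01 ± 0.59) and a dimmer FTH1 probe (-1.04 ± 0.39) were called lower, while the brightest probes of both genes were not. Letters of the antioxidant response element, TGACNNNGC, stood in the promoters of 9 of 29 list members, against 13.6% of all.

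The genes of drug transport differed in a few members. ABCB1, the efflux pump for taxanes, was below background on all 4 A2780CBN arrays (5.40 to 5.84) and read 428, 517, 431 and 453 in A2780CBNDXL, at least 19.4-fold higher, with both controls at background too. Its neighbours on chromosome 7, ABCB4, a phospholipid flippase, and CROT, a peroxisomal acyltransferase, were higher as well, ABCB4 at least 4.37-fold and CROT by 2.27 ± 0.09. ABCB1 and ABCB4 are near-identical over long stretches, and how far one probe reads the other transcript was not tested. Of the other genes around them, ADAM22 was lower (-2.34 ± 0.62, 3 arrays), and SLC25A40 (0.09) and DBF4 (-0.07) were not called. The cholesterol exporter ABCA1 was higher (1.95 ± 0.14), the surfactant lipid transporter ABCA3 (-1.71 ± 0.05) and ABCC6 (-1.52 ± 0.16) were lower, and the multidrug pumps ABCC1 (-0.67), ABCC4 (-0.32), ABCC5 (-0.93) and ABCG2 (-0.97) did not reach 2-fold. In the list of platinum and copper carriers 1 of 10 genes was called, SLC47A1, an extruder of organic cations, which was lower (-1.93 ± 0.36). The copper importers SLC31A1 (-0.87) and SLC31A2 (-0.91) and the copper pumps ATP7A (0.66) and ATP7B (-0.62) were not called; without the slide 1 forward pair SLC31A2 reached 2-fold and 2 of the 10 were lower. Of the 3 other probes of SLC31A1, 2 were called lower (-1.27 ± 0.28 and -1.14 ± 0.15) and 1 was not (-0.96).

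Of 16 tubulin genes 3 were lower by their brightest probes. TUBB2B, a beta-tubulin of neurons, read 440.4 to 546 in A2780CBN and 14.9 to 28.8 in A2780CBNDXL (-4.41 ± 0.52), where it was above background on 1 array. TUBE1 (-2.67 ± 0.26, 3 arrays) and TUBD1 (-1.05 ± 0.43), tubulins of centrioles, were lower, TUBD1 no longer reaching 2-fold without the slide 1 forward pair, which left 2 calls. The main beta-tubulin TUBB (0.18), TUBB2A (0.21), TUBB6 (0.11) and TUBB3 (-0.77), a subtype often discussed in taxane resistance, were not called. A dimmer probe of TUBA4A was called lower (-3.37 ± 0.03), but its brightest probe (-0.22) and its others (0.17 and -0.59) were not. A dimmer probe of TUBB4 was called lower as well (-1.17 ± 0.22), though the gene was not called by its brightest. Among 21 microtubule-associated proteins 4 were lower, namely the neuronal stabilizers MAP6, at least 9.88-fold, MAP1B (-1.87 ± 0.19) and MAP1A (-1.57 ± 0.33, controls -1.14), and the end-binding protein MAPRE3 (-1.55 ± 0.76). DCLK1, a kinase that binds microtubules, was higher (4.56 ± 0.55, 3 arrays), as were the end-binding protein MAPRE2 (1.41 ± 0.08, a second probe at 1.39 ± 1.12 not called) and the destabilizer STMN3 (1.20 ± 0.30). MAPT (-0.77), MAP4 (0.30) and STMN1 (0.16) were not called.

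Of 41 genes in the DNA repair list, 1 was higher and none lower, and the median was -0.03. The excision repair genes ERCC1 (0.37) and XPA (0.68) were not called.

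In the cell cycle, 2 of 39 genes were higher and 4 lower, close to the shares over all tested genes (6.41% and 9.90%). The list as a whole thus did not stand apart by its counts. CDK6, a kinase that drives entry into S phase, read 404 to 466 and 2886 to 4080.2 in A2780CBN and A2780CBNDXL (3.01 ± 0.24), and CDKN2A, which encodes its inhibitor p16, was also higher (1.15 ± 0.09). TOP2A (-1.42 ± 0.15), which untangles DNA before mitosis, CDC2 (now CDK1; -1.20 ± 0.18), the ribonucleotide reductase subunit RRM2 (-1.12 ± 0.34) and the inhibitor CDKN1C (-1.0 ± 0.36) were lower; without the slide 1 forward pair RRM2 and CDKN1C no longer reached 2-fold. Of 29 genes of the BCL2 family, the caspases and their inhibitors, 5 were higher and 5 lower. PMAIP1 (NOXA), a pro-apoptotic BH3 protein, was at background in A2780CBN and read 289 to 432 in A2780CBNDXL, at least 15-fold higher. BMF (2.22 ± 0.36), another BH3 protein, the initiator caspases CASP10 (2.12 ± 0.09, controls 1.15) and CASP9 (1.14 ± 0.34) and BOK (1.34 ± 0.33) were higher. The inhibitors BIRC3, at least 11.6-fold, and BIRC2 (-1.43 ± 0.40), which are neighbours on chromosome 11, were lower, and so were CASP1 (-1.33 ± 0.25) and the BH3 protein BID (-1.54 ± 0.28). BCL2 (0.16), BCL2L1 (0.47) and MCL1 (-0.58) were not called by their brightest probes. A second BCL2 probe was called lower, with mean signals of 265 in A2780CBN and 7.27 in A2780CBNDXL, and so was a second probe of the BH3 gene HRK (443 and 15.3), whose brightest probe was not called (0.18). Second probes of BOK (0.61) and CASP10 (1.21 ± 0.87) were not called.

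In cholesterol synthesis, 7 of 22 genes were lower and none higher, and the list median was -0.79. Between the controls 4 of the 22 were called and the median was 0.49, and taken over their own controls 13 were lower. Among those lower were the enzymes HMGCS1 (-1.49 ± 0.27), SC4MOL (now MSMO1; -1.92 ± 0.14), HSD17B7 (-1.39 ± 0.29) and IDI1 (-1.09 ± 0.57, under 2-fold without the slide 1 forward pair), the sterol sensor INSIG1 (-1.64 ± 0.14) and the carrier STARD4 (-1.41 ± 0.24). The sterol element letters TCACNCCAC stood in none of the promoters of 6 lower members and in 1 of 11 others, against 1.15% of all promoters. In hypoxia and glycolysis 4 of 25 were lower, among them ADM (-3.94 ± 0.26), a vasodilator peptide, and the carbonic anhydrase CA12 (-3.14 ± 0.18), and 3 were higher: LOX (4.58 ± 0.09, controls 3.00), which cross-links collagen, PFKP (1.73 ± 0.14) and ENO2 (1.28 ± 0.11). For this list 9 of 25 genes were called between the controls, with a median of 0.66; PFKP and ENO2 were higher in the control beside A2780CBNDXL by 2.06 and 2.91, more than between the lines, and taken over their own controls they turned to -0.33 and -1.63.

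Cell surface and matrix genes differed in both directions. Of 12 cadherins and catenins, 4 were higher and 3 lower. Beside CDH11, CDH7 read 164 to 273 in A2780CBN and 4348 to 5779 in A2780CBNDXL (4.58 ± 0.20), while CDH3, the placental cadherin, was lower (-1.71 ± 0.22), as was CDH10 (-1.27 ± 0.23). Of 30 collagens and laminins, 6 were higher and 4 lower. COL6A3, a chain of the microfibrillar collagen VI, read 4827 to 6068 in A2780CBN and 45591 to 58751 in A2780CBNDXL (3.22 ± 0.19), and the fibrillar chain COL11A1 was at least 44.9-fold higher. COL1A2 was higher between the lines (4.89 ± 0.21, 3 arrays) and between the controls (2.03). The laminin chains LAMA2, at least 30.4-fold, and LAMA1 (-3.72 ± 0.57, a second probe at 0.20 not called) were lower, and so were the matrix protein FN1, at least 9.56-fold, and the matricellular protein POSTN (-3.85 ± 0.11). Of the integrins, ITGB5 (2.23 ± 0.16) and ITGA1 (1.96 ± 0.30), a collagen receptor, were higher, and ITGAV (-2.44 ± 0.15), the partner of ITGB5, ITGA6 (-3.07 ± 0.34), a laminin receptor, and ITGA3 (-1.42 ± 0.28) were lower. Of the epithelial and mesenchymal genes 5 of 22 were higher, among them the claudins CLDN6 (3.33 ± 0.24) and CLDN7 (2.00 ± 0.42) and TWIST2, at least 7.56-fold, and 6 were lower, among them OCLN (-2.60 ± 0.24, 2 arrays), a tight junction protein, TAGLN (-2.10 ± 0.21), an actin binder of smooth muscle, and SNAI1 (-1.35 ± 0.10, 2 arrays). VIM (-0.26), EPCAM (0.17) and ZEB1 (0.06) were not called, and epithelial and mesenchymal genes alike lay on both sides. Of the genes of these lists, CLDN6 (1.20), TWIST2 (1.68), ITGA1 (1.19), COL11A1 (1.29) and TAGLN (-1.32) differed the same way between the controls.

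Among 27 receptor tyrosine kinases, 10 were lower and 4 higher. The 2 platelet-derived growth factor receptors went opposite ways: PDGFRA read 408, 359, 263 and 298 in A2780CBN and 8576, 8773, 6606 and 6105 in A2780CBNDXL (4.50 ± 0.15), and PDGFRB 938, 932, 1094 and 1119 and 26.7, 45.5, 36.5 and 32.2 (-4.88 ± 0.36, 2 arrays). The controls differed little for either gene, by -0.24 and 0.01. In the ERBB family, ERBB4 (-3.38 ± 0.49) and ERBB3 (-2.95 ± 0.34, 3 arrays) were lower, ERBB2 was higher (1.09 ± 0.14) and EGFR was not called (0.82). FGFR1 (-2.82 ± 1.31) and FGFR3 (-1.78 ± 0.38, a second probe at -1.16 ± 1.02 not called) were lower; FGFR1 read 183, 1038, 1391 and 1714 in A2780CBNDXL, the first value coming from the slide 1 forward array, and without that pair the difference of FGFR1 was -2.17. ROR2 (-4.68 ± 0.37, 2 arrays), a receptor for WNT5A, the ephrin receptor EPHB2 (-3.49 ± 0.37, 1 array), RET, at least 5.00-fold, and MERTK (-1.79 ± 0.09) were lower, and EPHB6 (4.65 ± 0.27) and the insulin-like growth factor receptor IGF1R (2.59 ± 0.36) were higher, IGF1R with controls that differed by 1.59.

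In WNT signalling 8 of 28 genes were lower and 3 higher. The ligands WNT5B, at least 5.06-fold, and WNT3A, at least 3.97-fold, the receptors FZD3, at least 14.7-fold, and FZD5 (-2.06 ± 0.18), the repressor TCF7L1 (-2.53 ± 0.14) and the secreted antagonist WIF1 (-2.16 ± 0.08) were lower. Higher were the receptor FZD1 (1.44 ± 0.08) and 2 secreted antagonists, FRZB, which read 27.5 to 40.2 in A2780CBN and 769.6 to 844 in A2780CBNDXL (4.59 ± 0.26), and DKK1 (1.45 ± 0.05). In TGF-beta and BMP signalling 5 of 28 were lower and 3 higher (2 without the slide 1 forward pair). The ligands TGFB2 (-2.82 ± 0.33) and TGFB3 (-1.79 ± 0.16), the receptor TGFBR2 (-3.12 ± 0.36) and LTBP1, at least 12.9-fold, which holds the latent ligand in the matrix, were lower. TGFB1 was higher (1.45 ± 0.42), and BMPR1B, a BMP receptor, was at background in A2780CBN and read 406 to 519 in A2780CBNDXL, at least 18.8-fold higher. Of 15 chemokine and interleukin genes, 5 were lower, among them IL15 (-2.69 ± 0.75, 2 arrays), which supports T and natural killer cells, IL6R (-3.05 ± 0.56, 2 arrays) and LIF (-1.93 ± 0.05), and 2 were higher, the CXCL12 receptors CXCR7 (now ACKR3), at least 15.2-fold, and CXCR4, at least 5.05-fold. With normexp background correction no chemokine or interleukin gene was lower and 1 was higher, and the WNT list had 4 lower. CXCR4 was also higher in the control beside A2780CBNDXL, by 4.40, and over its own control it turned to -0.51.

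The HOX genes, which set position along the body axis, were called in the HOXD and HOXB clusters. All 6 tested genes of the HOXD cluster were higher in A2780CBNDXL. Their probes followed each other on chromosome 2, positions 176667660 to 176746032 (NCBI36), without a gap among tested genes that had a name and a position. HOXD10, HOXD11, HOXD8, HOXD3 and HOXD13 were below background in A2780CBN on all arrays and at least 143-, 104-, 22.2-, 13.3- and 3.63-fold higher. HOXD9 read 660.1, 73.7, 119 and 94.1 in A2780CBN and 4257, 3806, 2799.7 and 3479.7 in A2780CBNDXL (4.54 ± 1.32), the first A2780CBN value standing far from its other 3; without that pair the difference of HOXD9 was 5.15. HOXD10 and HOXD11 were also higher in the control beside A2780CBNDXL, by 3.40 and 3.99, and the other 4 were not called there. In the HOXB cluster HOXB6 (-3.04 ± 0.32), HOXB4 (-1.47 ± 0.31), HOXB9 (-1.30 ± 0.52) and HOXB5 (-1.21 ± 0.11) were lower, and HOXB2 (0.28), HOXB3 (-0.21), HOXB7 (0.12) and HOXB13 (0.14) were not called. Other probes of this cluster differed, a second HOXB4 probe being at 0.86 and a second HOXB6 probe at -0.82, neither of them called. By its brightest probe no HOXA or HOXC gene was called, but a dimmer probe of HOXA10 was called higher, with mean signals of 6.48 and 193 in A2780CBN and A2780CBNDXL.

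Called genes lay next to each other elsewhere too. Adjacency was judged among tested genes with a gene name and a chromosome position, here and for the windows and chromosome shares below. Other tested genes were left out. There were 15 runs of at least 4 adjacent such genes all called higher and 18 all called lower, holding 159 genes. On chromosome 18 a run of 7 from FAM59A to MAPRE2 (positions 28101579 to 30975425, NCBI36 throughout) was higher. On chromosome 10 the run CH25H, LIPA, IFIT2, IFIT3, IFIT1 and IFIT5 (90955781 to 91168382) was lower, and so was a run of 7 from ANK3 through CDC2 to RTKN2 (61458165 to 63669530). A run of 7 on chromosome 3 from PLOD2 to GYG1, which includes the paired zinc-finger genes ZIC4 and ZIC1 (147271102 to 150227953), was lower. BIRC3 and BIRC2 opened a lower run of 5 with TMEM123 and the metalloproteinases MMP10 and MMP1 (chromosome 11, 101713566 to 102165966), and AKR1C1 and AKR1C3 closed a higher run of 4 that began with KLF6 (chromosome 10, 3811387 to 5137848).

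Over longer stretches the medians of the differences departed from 0 in single windows and in series of neighbouring windows. In 262 windows of 10 Mb with at least 15 tested genes, the medians ran from -0.77 to 1.15, with -0.42 at the 5th and 0.30 at the 95th percentile. The highest median, 1.15, belonged to the tip of the long arm of chromosome 10 (131396272 to 135331676), where 12 of 21 tested genes were higher and none lower, and where the median between the controls was 0.02. The tip of chromosome 2 followed (240609459 to 242440781), with 8 of 18 genes higher and a median of 0.96. The lowest median, -0.77, was on chromosome 3 (140145849 to 149942382), with 10 of 21 genes lower, and next was chromosome 10 from 90666485 to 99997795, with 23 of 60 lower and a median of -0.76. Neighbouring windows shared a sign over broad stretches. On chromosome 17 from 40110671 to 78645969 the window medians were -0.60 to -0.48. They were -0.56 to -0.22 on chromosome 2 from 1810 to 69985244, and -0.76 to -0.26 on chromosome 10 from 42332753 to 129785690. Control medians of these windows lay between -0.15 and 0.21. On chromosome 1, from 220801348 to 229767081, few genes were called (4 higher and 1 lower of 56), but the median was 0.54 and 7.14% of the genes lay below 0. By whole chromosome, genes on chromosome 10 had the largest share called lower (18.3%, median -0.27) and those on chromosome 18 the largest share called higher (14.9%). The number of DNA copies was not measured in these data.

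**Figure D5:**
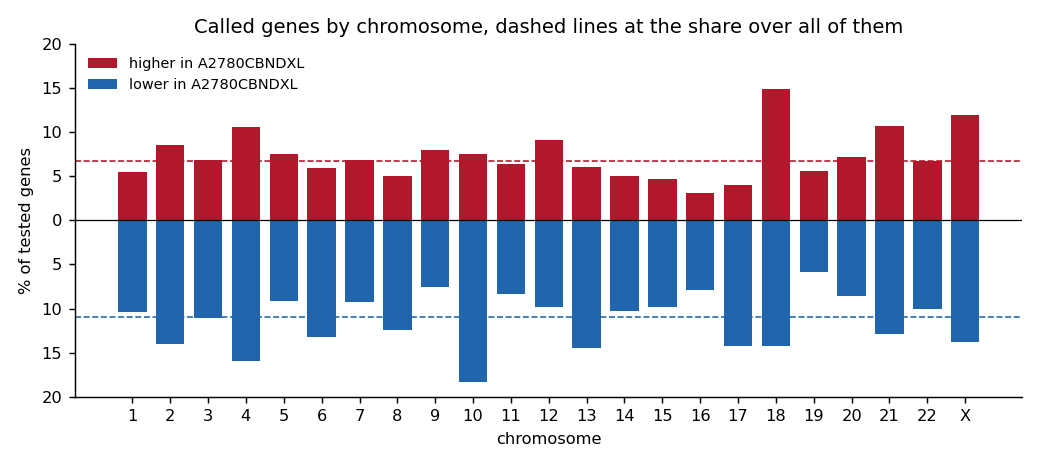
Share of tested genes with a gene name and a position that were called higher and lower (vertical axis, percent) on each chromosome (horizontal axis). Dashed lines stand at the shares over all such genes. Chromosome 10 has the largest share of lower genes, 18.3%, and chromosome 18 the largest share of higher genes, 14.9%.

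The study chose 16 genes from these arrays for follow-up, so their directions are no independent evidence; 15 passed the filter here. Between the 2 resistant lines 9 were higher in A2780CBNDXL and 4 lower. Beside ABCB1, ABCB4, CDH11, CDH7, AKR1C3, GSTO2, GCLC, MT2A, PARP9 and GSTO1, which are described above, ANXA1, a calcium-dependent phospholipid binder, read 88.2 to 116 in A2780CBN and 465 to 717 in A2780CBNDXL (2.43 ± 0.27), both far under their controls (10364 and 22782, a difference of 1.14). PRSS7, the intestinal protease enteropeptidase, was higher (1.70 ± 0.14). Taken over its controls, which were dim, its difference turned to -0.42, and the cause was not tested. FLRT3, an adhesion protein, was at background in A2780CBN (9.94 to 13.2) and dim in A2780CBNDXL (27.0 to 67.9), at least 1.56-fold higher, beside controls of 3757 and 4229; its sign turned (-0.16) with another background correction. CYP1B1 (0.41) and LAYN (0.20) were not called. The study also measured these genes by QPCR against the parental line. There PARP9 was significantly higher in A2780CBNDXL than in A2780CBN, the opposite of the arrays here. MT2A, GSTO1, PRSS7 and FLRT3 did not differ significantly between these lines by QPCR. ABCB1, CDH11, CDH7, AKR1C3, GSTO2, GCLC and ANXA1 differed significantly by QPCR in the direction found here.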

How the data were processed

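Total RNA of A2780CBN and A2780CBNDXL, each pooled from 3 isolations, was labelled with Cy3 or Cy5 and hybridized against A2780CC on 4 Agilent arrays per line (43376 spots that are not controls per array). The authors deposited the scanner output of Feature Extraction 10.7.1.1 (slide 1) and 10.7.3.1 (slide 2), whose processed intensity is background-subtracted and dye-normalized per the file headers; probe positions are NCBI36. The deposited log10 ratios and the authors' Partek results were not used; no column belonged to another series. From the deposited intensities, log2 values of both channels were scaled between arrays by Aquantile (limma 3.58.1, R 4.3.3), outlier spots were left out, spots of a probe were averaged and the brightest probe stood for its gene (pandas 2.3.3, Python 3.11.15). Line channels of A2780CBN were subtracted from those of A2780CBNDXL within 4 pairs matched for slide and labelling direction. Between 59.8% and 66.5% of spots per line channel were well above background, which, with the number of arrays, limits the precision.

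A lower bound sets the bright line's mean against the dim line's mean of, on each array, the higher of the probe's own signal and the lowest signal among probes well above background. That lowest signal is not a detection limit, so the bounds are approximate. Between 1 sample and 1 sample no test was run on conditions; a 3-way ANOVA and limma on the matched differences, as alternatives, measure array error alone. Named genes were the 15 largest measured differences and the 10 largest bounds per direction, the 16 genes of the study's validation set, and members of 27 gene lists, called members first; 1 of these lists and some genes are not reported here. These members and lists were chosen with earlier results of these data known. Promoters came from RefSeq (GRCh38.p14), matched by symbol; probes were matched to RefSeq by accession for 26494 of 41000 (64.6%), and otherwise kept the array's name. Steps were tested on simulated data.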

Additional observations from a re-analysis of the deposited data

Results flagged for a closer look

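For 8 of the ranked or follow-up genes whose signals were above background in all channels, the 2 resistant lines lay on opposite sides of their own co-cultured controls on every array; the difference between the 2 effects was not tested. On the log2 scale over its own control, POU4F1 was at 2.5 in A2780CBN and -4.91 in A2780CBNDXL, PLAGL1 at 1.35 and -4.28, GCLC at 3.09 and -1.22, and MT2A at 1.95 and -2.18. The other 4 ran the other way. MAOA was at -1.0 in A2780CBN and 4.72 in A2780CBNDXL, TYRP1 at -1.55 and 4.49, C9orf150 at -1.15 and 4.2, and CYB5R2 at -3.26 and 1.84.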

How the results depend on the processing

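No paired analysis was possible because each line is 1 sample, and the matching by slide and labelling direction pairs arrays, not samples. Against 1128 higher and 1741 lower genes, the counts moved by over 1.5 times with normexp background correction (offset 50) and loess, which gave 447 and 674. That setting kept 39.4% of the higher and 37.9% of the lower calls, and its offset shrinks log differences of dim probes. The counts also moved with other limits: 2492 and 2931 at 1.5-fold, 631 and 1042 at 3-fold, and 1022 lower genes where both lines had to be above background on all arrays. Leaving out each matched pair gave 1132 to 1193 higher and 1700 to 1821 lower genes. Without scaling between arrays the counts were 1333 and 1546 and the median of all genes was 0.18 in place of 0.05, and the share of higher calls stayed between 36.4% and 46.3% over all settings, beside 39.3%. With log ratios over the controls, 1208 genes were higher and 2010 lower, and 827 (73.3%) and 1483 (85.2%) of the genes called above were called the same way. A 3-way ANOVA at a false discovery rate of 0.05 called 1109 and 1647 genes and limma 1129 and 1727, both measuring array error. Of 259 named genes, 5 that were called changed sign under a setting: FLRT3 with normexp (-0.16), and over the controls CXCR4 (-0.51), ENO2 (-1.63), PFKP (-0.33) and PRSS7 (-0.42); the cause was not tested. Over the controls 175 named genes kept their sign but moved by at least their SD over pairs, and under normexp 203 did. Over the controls the hypoxia list had 1 gene higher and 10 lower, and cholesterol synthesis 13 lower. With normexp, list counts that moved by over 1.5 times and by at least 3 genes were the lower interferon (16), WNT (4), chemokine and interleukin (0), and epithelial and mesenchymal genes (3) and the higher glutathione and NRF2 (2), BCL2 family (2), and epithelial and mesenchymal genes (2). Values near background carry the least precision: the median SD over pairs was 0.34 in the third of genes with the lowest signal and 0.19 in the third with the highest.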
